A study of Mus musculus with 8 samples.

Results

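The chromatin of mTEC-I was set against that of mTEC-IV, the populations of medullary thymic epithelial cells (mTEC) that were both sorted as MHCII low. Both came from the thymus of C57BL/6 mice kept free of specific pathogens, and every sorted cell was CD45 negative, Epcam positive and MHCII low. mTEC-I was in addition Itgb4 positive, and mTEC-IV was Itgb4 negative and L1cam positive. ATAC-seq reads out open chromatin by letting a transposase place sequencing adapters where DNA is accessible. Each population had 2 libraries, so 4 of the 8 libraries of the series entered the comparison. The other 4 (mTEC-II and mTEC-III, 2 each) entered the test only through the shared spread, the scaling and the filter on low signal. All 74090 peaks that the authors merged over the 8 libraries were considered, and 59943 of them held enough signal to be tested, while 14147 did not. Summed over the peaks within 10 kb of a transcription start site (TSS), 15695 genes had a value and 15085 were tested. The labels do not state whether replicates stem from separate animals or sorts, so a p-value here reflects library-to-library spread, which may be technical only.

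mTEC line the thymic medulla and display self antigens to developing T cells. Itgb4 encodes integrin beta 4, which joins keratin filaments to the basement membrane in hemidesmosomes, and it marks cells that rest on such a membrane. MHCII low mTEC that express Krt5, Krt14 and Ccl21a are known as attractors of young T cells into the medulla. Tuft cells are another kind of epithelial cell, present in gut, airway and thymus. They use the signalling chain of taste cells, depend on the transcription factor Pou2f3 and release the cytokine IL-25 and lipid mediators.

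Values are given as scaled tags, that is, the authors' sequence tags per 10000000 tags of the library, divided by a scaling factor (TMM) that aligns the libraries. Each difference is a log2 difference, mTEC-I minus mTEC-IV, on log2(scaled tags + 1), given with its standard error (SE), so a negative value means more open in mTEC-IV. A peak or gene was called when limma's Benjamini-Hochberg adjusted p was under 0.05. Peaks and gene sums were scaled separately, so a peak and the sum of its gene can differ slightly in scale. In cells measured in bulk, a site open in fewer cells and a site less open in every cell cannot be told apart.

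The 4 promoters below are shown because each held a peak that was open in 1 of the populations and nearly closed in the other. Crp encodes the acute phase protein C-reactive protein and Krt5 a keratin of basal epithelial cells, and both peaks were called higher in mTEC-I. 1810046K07Rik encodes a small cofactor that binds Pou2f3, and Hepacam2 a cell adhesion protein of the immunoglobulin family, and both peaks were called higher in mTEC-IV. The sequences are the 250 bases before the RefSeq start in the GRCm38.p6 build, at chr1:172697806-172698055 on the plus strand, chr15:101712906-101713155, chr9:51328919-51329168 and chr6:3494499-3494748 on the minus strand. They are written 5′ to 3′, and capitals mark matches on either strand to the 15 short motifs searched.
Crp: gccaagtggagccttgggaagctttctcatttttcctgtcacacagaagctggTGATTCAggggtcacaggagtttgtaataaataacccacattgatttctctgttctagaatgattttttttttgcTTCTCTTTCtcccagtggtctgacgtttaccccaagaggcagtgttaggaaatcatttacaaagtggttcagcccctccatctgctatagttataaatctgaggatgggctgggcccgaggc
Krt5: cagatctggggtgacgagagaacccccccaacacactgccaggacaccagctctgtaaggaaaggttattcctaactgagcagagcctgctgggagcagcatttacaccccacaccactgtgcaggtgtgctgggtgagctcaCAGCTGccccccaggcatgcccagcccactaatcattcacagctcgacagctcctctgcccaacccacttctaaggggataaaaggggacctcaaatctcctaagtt
1810046K07Rik: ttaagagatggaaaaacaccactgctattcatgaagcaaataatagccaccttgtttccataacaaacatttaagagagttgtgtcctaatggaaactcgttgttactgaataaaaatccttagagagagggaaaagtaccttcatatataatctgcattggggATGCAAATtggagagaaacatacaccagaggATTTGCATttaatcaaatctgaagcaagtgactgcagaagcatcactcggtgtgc
Hepacam2: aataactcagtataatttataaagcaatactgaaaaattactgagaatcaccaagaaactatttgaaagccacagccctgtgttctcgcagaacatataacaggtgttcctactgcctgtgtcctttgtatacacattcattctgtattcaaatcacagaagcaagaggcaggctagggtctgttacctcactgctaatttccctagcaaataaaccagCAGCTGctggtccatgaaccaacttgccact
The Crp promoter held an AP-1 match (TGANTCA) at position -197 from the start and an interferon response element match (GAAANNGAA) at -122. The Crp peak is 240 bp wide and centred at -288 bp. If the start is the same in both builds, the match at -122 lies outside the peak, as does much of the printed sequence. The Krt5 and Hepacam2 promoters each held 1 E-box (CAGCTG), at -107 and -31. The printed 1810046K07Rik promoter held the octamer ATGCAAAT at -86 on the strand of the gene and at -55 on the other. The octamer is the motif bound by POU family factors. RefSeq gives this gene another promoter (chr9:51312670-51312919), with a KLF match (GGGCGTGG) and no octamer, so it is not among the single-promoter genes below. The promoters of Avil, Fabp1, Gnat3, Ly6g6f, Lyg1, Rgs13, Sh2d7 and Trpm5, genes called higher in mTEC-IV, were also read and held no octamer. Among all 22862 genes with a single promoter in the RefSeq table, 1.68% held an octamer in this window, 6.96% an AP-1 match, 7.16% an interferon response element match and 12.7% the E-box. A match is a string of letters and says nothing of a protein bound there.

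The peak at the Crp promoter (mm9 chr1:174627780-174628019, centred at -288 bp from the start) held 65.9 and 61.8 scaled tags in the mTEC-I libraries against 0 and 1.05 in mTEC-IV, a ratio of 105 with a 95% exact interval of 18.5 to 4179. The peak at the Krt5 promoter (mm9 chr15:101543264-101543455, at -37 bp) held 41.1 and 48.8 against 0.724 and 1.05, a ratio of 48.5 (9.85 to 307). The peak at the 1810046K07Rik promoter (mm9 chr9:51137027-51137191, at -87 bp) held 0.44 and 0 in mTEC-I against 53.0 and 46.5 in mTEC-IV, a ratio of 202 (17.8 to 4070). The peak at the Hepacam2 promoter (mm9 chr6:3444463-3444640, at -53 bp) held 1.33 and 0 against 67.5 and 56.6, a ratio of 83.8 (16.9 to 526). In none of the 4 did the libraries of the populations overlap. Such intervals cover counting error only, since copies made by PCR are not independent molecules.

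The motifs were also counted in the promoters of all genes whose peak within 1 kb of the start was called. Of 12317 genes with a tested promoter peak, 7780 had a single RefSeq promoter, and 1.62% of these held an octamer. The octamer was found in 9 of 494 promoters whose peak was called higher in mTEC-I (1.82%) and in 25 of 864 called higher in mTEC-IV (2.89%). Of those that were higher by 2 or more on the log2 scale, it was in 2 of 183 (1.09%) and 11 of 190 (5.79%). The ETS motif CCGGAAGT was found in 3 of 494 promoters called higher in mTEC-I (0.607%) and in 66 of 864 called higher in mTEC-IV (7.64%), against 5.99% of all tested. The interferon response element match was found in 9.72% of promoters called higher in mTEC-I, 4.98% of those called higher in mTEC-IV and 5.82% of all tested. The AP-1 match was found in 7.29% and 5.21%, against 4.02%, and the E-box in 17.2% and 13.0%, against 11.6%. Among promoters higher by 2 or more, the AP-1 match was in 16 of 183 (8.74%) and 18 of 190 (9.47%), the reverse order. The ETS motif was in 0 of 183 and 5 of 190 (2.63%) of these, the latter below the share of all tested. The interferon response element match was in 22 of 183 and 13 of 190, and the E-box in 38 of 183 and 26 of 190. Both stayed more frequent in mTEC-I. The promoters called higher in the 2 populations had 59.2% and 58.4% G and C, against 60.4% for all tested, and the motif shares were not tested.

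The total tags of the 4 libraries ranged from 6010018 to 10374623, and the share of tags in merged peaks was 19.7% in both mTEC-I libraries and 18.1% and 14.2% in mTEC-IV. In their own peak lists the authors called 44288 and 39040 peaks in mTEC-I and 30017 and 38108 in mTEC-IV. The log2 signal, compared over peaks that are not independent of each other, correlated between the mTEC-I libraries at 0.942 and between the mTEC-IV libraries at 0.923, whereas the 4 pairs between the populations ranged from 0.289 to 0.296.

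mTEC-I and mTEC-IV differed at a large share of their open sites, mostly by more than 4-fold. In limma, 13649 peaks were higher in mTEC-I (22.8% of those tested) and 11851 were higher in mTEC-IV (19.8%), and 34443 were called in neither direction. The median size of the difference was 2.62 on the log2 scale for peaks higher in mTEC-I and 2.98 for those higher in mTEC-IV, and 73.9% and 68.5% of them lay beyond 2. Peaks higher in mTEC-IV were more often near all or nothing, since 49.5% lay beyond 3 on the log2 scale against 34.7% of those higher in mTEC-I. In 1360 of them (11.5%) no read end was found in either mTEC-I library, and in 840 of the peaks higher in mTEC-I (6.15%) none in either mTEC-IV library. The sizes of the 2 sets were not matched for level or scaling. Peaks higher in mTEC-IV had medians of 23.2 and 22.2 scaled tags there, and those higher in mTEC-I had 19.5 and 20.1 in mTEC-I. With the authors' scaling the median log2 difference over all tested peaks was 0.26 in place of -0.09. The libraries of the populations overlapped in 3 called peaks, all of them higher in mTEC-I. The test and the background share are the same for every count of peaks below.

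The number of calls rested on having 2 libraries a side. When 1 library of the 4 was left out and the tested peaks were kept as they were, 8490 to 9831 of the 13649 and 8114 to 8664 of the 11851 peaks were still called, and none changed sign. A change of sign could hardly occur, since the libraries overlapped in only 3 called peaks. Keeping the tested peaks was chosen after seeing the data, and the left-out library still had a part in choosing them. With the filter applied anew, as planned, 6244 of the 13649 peaks were no longer tested without mTEC-I replicate 1. Without mTEC-IV replicate 1, 6108 of the 11851 were not, and every such leave-out kept fewer calls. When the authors' scaling to total tags was used without TMM factors, the split moved from 53.5% of calls higher in mTEC-I to 63.7% (16190 against 9229 peaks).

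**Figure D1:**
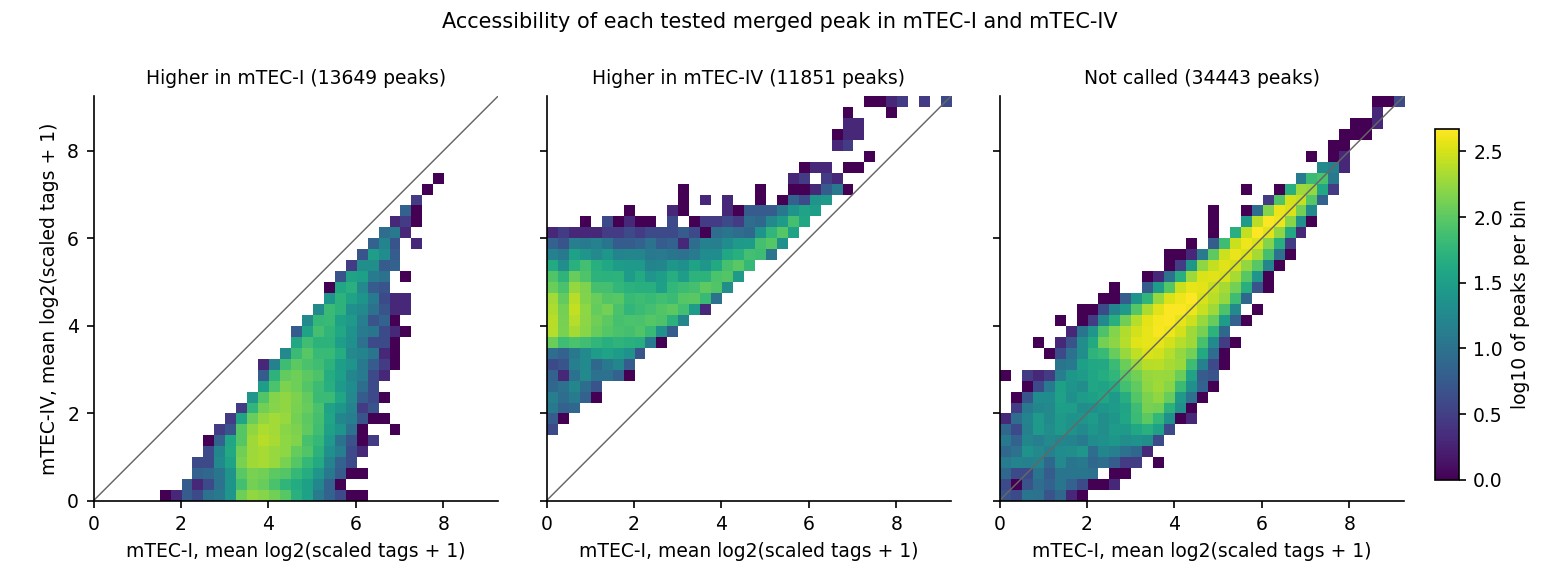
Each of the 59943 tested peaks by its mean scaled tags in the mTEC-I libraries (x axis, log2 of scaled tags + 1) and in the mTEC-IV libraries (y axis, same scale), with the colour giving the log10 of peaks per bin, 1 panel per call and the outermost bins also holding larger values. The 13649 peaks higher in mTEC-I lie below the diagonal and the 11851 higher in mTEC-IV above it, many of them close to 0 in the other population, while the 34443 uncalled peaks lie mostly along it.

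The called peaks were also compared with the authors' own lists, made in each library alone. Of the peaks higher in mTEC-I, 10136 (74.3%) held a peak in both mTEC-I lists and in neither mTEC-IV list, and 565 held one in all 4. Of the peaks higher in mTEC-IV, 6293 (53.1%) held a peak in both mTEC-IV lists and in neither mTEC-I list, and 1436 held one in all 4. In 4 and 3 peaks it was the opposite population alone that held a peak in both of its lists. Of the 34443 uncalled peaks, 3229 (9.37%) were in both mTEC-I lists and neither mTEC-IV list, and 779 (2.26%) were the reverse. The lists come from the same libraries as the calls and are not independent of them.

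The MHCII high and Ly6D positive populations mostly lay between the 2. Peaks higher in mTEC-I had medians of 19.5 and 20.1 scaled tags in the mTEC-I libraries and 2.18 and 2.12 in mTEC-IV, while mTEC-II gave 6.92 and 7.68 and mTEC-III gave 8.33 and 7.12. Peaks higher in mTEC-IV had medians of 1.77 and 1.62 in mTEC-I and 23.2 and 22.2 in mTEC-IV, while mTEC-II gave 5.76 and 5.37 and mTEC-III gave 8.33 and 8.15. The mean of mTEC-II lay between those of mTEC-I and mTEC-IV in 74.1% and 73.0% of these peaks, and that of mTEC-III in 76.6% and 79.5%. These shares describe peaks chosen for their difference between mTEC-I and mTEC-IV.

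**Figure D2:**
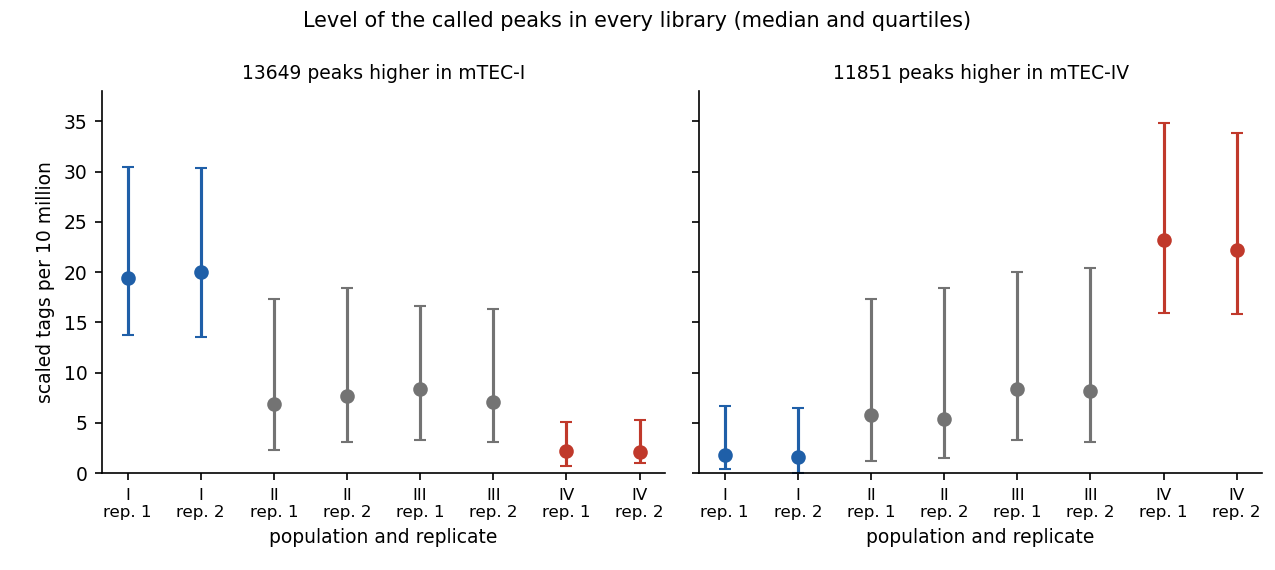
Median scaled tags (y axis) of the peaks called higher in mTEC-I and of those called higher in mTEC-IV, in each of the 8 libraries, with bars for the 25th to 75th percentile over peaks. The mTEC-I and mTEC-IV medians lie near 20 in the population where the set is higher and near 2 in the other, with mTEC-II and mTEC-III between 5.37 and 8.33.

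Peaks at promoters were called least often, and the share higher in mTEC-I went up with each step away from the start. Within 1 kb of a TSS, 5.99% of 16185 peaks were higher in mTEC-I and 9.64% higher in mTEC-IV. From 1 to 10 kb the shares were 20.9% and 22.9% of 10967, and from 10 to 100 kb 28.8% and 23.8% of 26117. Beyond 100 kb, 42.8% of 6674 peaks were higher in mTEC-I and 23.4% higher in mTEC-IV. Peaks in CpG islands differed least, with 4.52% and 8.46% of 2211 called. The mean signal differed between these classes as well, with a median of 36.3 scaled tags in mTEC-I within 1 kb and 11.9 beyond 100 kb. Among peaks with a mean of 20 to 40 scaled tags the shares were 7.82% and 11.5% within 1 kb and 42.6% and 19.8% beyond 100 kb.

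**Figure D3:**
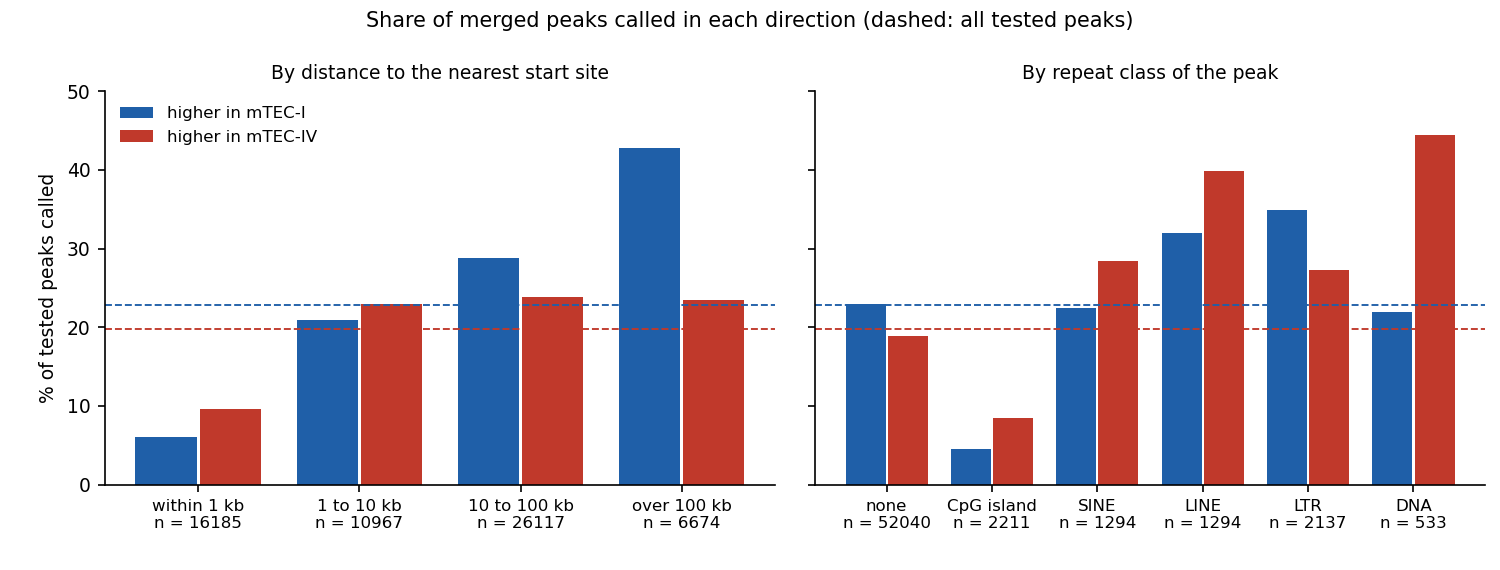
Percent of tested peaks (y axis) called higher in mTEC-I and higher in mTEC-IV, by distance from the nearest TSS and by the repeat class the authors' annotation gives. The share higher in mTEC-I goes from 5.99% within 1 kb to 42.8% beyond 100 kb, and that higher in mTEC-IV from 9.64% to 23.4%.

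The distal peaks named here, those with the largest difference outside chromosome 18, were at or near 0 in the other population. A peak at -110.6 kb from 4933400L20Rik (chr8:106017035-106017227) held 68.1 and 71.0 scaled tags in mTEC-I and 0 in both mTEC-IV libraries, at least 18.5-fold higher against a floor of 3 tags per library. A peak 313.8 kb from the start of Hgf, the gene of hepatocyte growth factor (chr5:16373447-16373652), held 62.8 and 56.9 against 0 and 0, at least 15.9-fold higher. A peak in intron 4 of Tprg, a neighbour of Trp63 (chr16:25397673-25397833), held 60.5 and 42.3 against 0 and 0, at least 13.7-fold higher. In mTEC-IV the peak nearest to the start of Mon2 (chr10:122568908-122569088), which lies in intron 8 of the transcript NM_001301628, held 54.5 and 74.6 with 0 in both mTEC-I libraries, at least 21.9-fold higher. The peak nearest to Gm20139 (chr10:18836746-18836918) held 67.5 and 53.9 in mTEC-IV against 0 and 0 in mTEC-I, at least 20.6-fold higher. That nearest to Mir691 (chr16:74132261-74132436), in intron 2 of the transcript NM_175549, held 61.0 and 55.0 in mTEC-IV against 0 and 0 in mTEC-I, at least 19.6-fold higher. These 6 peaks were chosen for large differences and for libraries that do not overlap. Chromosome 18 and untranslated regions were left out of the choice, so larger differences may exist there. With 1 of the 8 libraries left out and the tested peaks kept as they were, the smallest size of a log2 difference was 5.38, at the Tprg peak.

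Summed per gene, 1737 genes were higher in mTEC-I (11.5% of those tested) and 1427 higher in mTEC-IV (9.46%), with median sizes of 1.43 and 1.35 on the log2 scale and a median over all genes of -0.01. These 2 shares are the background for every count of genes below. In none of these called genes did the libraries of the populations overlap. Separate libraries at a called gene below therefore come with the call and add no support to it. Without 1 of the 4 libraries, 833 to 1066 of the former and 651 to 779 of the latter were still called, with no change of sign. With libraries that did not overlap, leaving 1 out could hardly change a sign. The tested genes were kept as they were here and in the leave-outs of named genes and lists below. With the authors' scaling the counts of called genes were 1759 and 772, so that 69.5% of calls were higher in mTEC-I in place of 54.9%. The median over all genes was then 0.20. Among the 10 genes with the largest difference in each direction were Plaur and Apoc1 in mTEC-I and Fabp1 and Lyg1 in mTEC-IV. Plaur, the receptor of the urokinase protease, held 32.9 and 36.6 scaled tags in mTEC-I against 0 and 1.49 in mTEC-IV, a ratio of 40.6 (8.11 to 256). Apoc1, a lipoprotein component, held 53.9 and 52.7 against 1.33 and 0, a ratio of 93.9 (16.6 to 3761). For both genes the mTEC-I libraries lay far above the mTEC-IV libraries. Fabp1, a fatty acid binding protein of gut and liver, held 0.454 and 0 in mTEC-I against 52.5 and 43.6 in mTEC-IV, a ratio of 189 (16.6 to 3807). Lyg1, a lysozyme of the goose type, held 0.454 and 0.554 against 92.4 and 49.6, a ratio of 136 (24 to 5420), and for both the mTEC-IV libraries lay far above the mTEC-I libraries.

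The genes of the sort were examined to check the labels. Itgb4 had 95.8 and 76.5 scaled tags within 10 kb in mTEC-I and 62.5 and 61.0 in mTEC-IV, which was not called (0.47 ± 0.24, adjusted p = 0.198). Its peak in the first exon, at 254 bp past the start, held 82.2 and 66.1 against 66.8 and 57.6 and was not called either. Of its 5 peaks, 1 was called. That peak, at -16.5 kb and inside intron 5 of a neighbouring transcript (NM_020483), held 45.5 and 43.9 against 0 and 2.12 (ratio 36.6, 9.85 to 307), and the libraries were far apart. L1cam, a neural adhesion molecule, had 2.74 and 1.66 against 10.6 and 11.9 (-1.96 ± 0.71, adjusted p = 0.0536). Its peak in intron 1, at 276 bp, held 2.65 and 1.62 against 11.6 and 12.7 and was called at that level (adjusted p = 0.0164), though not when any 1 of the 4 libraries was left out (up to 0.127). Both sort markers therefore lay on the side of their labels, without a called gene sum. The L1cam sum was called under 6 alternatives, with adjusted p from 0.00322 with the 4 libraries alone to 0.0451 with no filter. The Itgb4 sum was called with peaks at any distance (0.86, adjusted p = 0.000562) and with the 4 libraries alone (adjusted p = 0.0408).

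Epcam, the epithelial adhesion molecule on which both populations were gated, had 145 and 137 scaled tags near its start in mTEC-I and 152 and 136 in mTEC-IV, and the libraries overlapped. None of its 5 peaks within 2 kb of the start was called, but 6 of its 12 peaks upstream were higher in mTEC-IV (5 to 6 without 1 library). That at -34.3 kb held 0.887 and 1.08 in mTEC-I against 33.4 and 32.8 in mTEC-IV (ratio 33.9, 8.95 to 287). Summed over peaks at any distance, Epcam was called higher in mTEC-IV (-0.54, adjusted p = 0.000217). No merged peak lay within 10 kb of Ptprc, which encodes CD45.

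Most tested effector genes of the taste signalling chain and of tuft cells were higher in mTEC-IV. Of 33 tested tuft effectors, 24 were higher in mTEC-IV and none in mTEC-I (median log2 -2.07), and without 1 library 20 to 22 were. Of 11 tested genes of taste transduction, 7 were higher in mTEC-IV and 1, the ectonucleotidase Entpd2, in mTEC-I (median -2.15). Of 12 tested bitter receptors (Tas2r genes), 10 were higher in mTEC-IV and none in mTEC-I (median -3.81, or -3.43 with genes at 0 set to their bound), and 7 to 10 remained without 1 library. Earlier results of these data were known when these lists were chosen, so the counts describe them.

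Gnat3 encodes gustducin, the G protein alpha subunit of taste cells. It had 0 scaled tags in both mTEC-I libraries and 45.2 and 34.2 in mTEC-IV, at least 13.1-fold higher (adjusted p = 0.000149). Rgs21, a regulator of G protein signalling in taste cells, had 0.916 and 3.32 against 64.5 and 58.0 (-4.43 ± 0.55, adjusted p = 7.24e-06). Every mTEC-IV library was above 34 and every mTEC-I library below 4 for both genes. Tas1r3, the shared subunit of the sweet and umami receptors, had 0.916 and 1.1 against 33.9 and 36.2, a ratio of 35.2 (9.33 to 297). Trpm5, the cation channel that depolarizes taste and tuft cells, had 0.916 and 1.66 against 27.3 and 33.7, a ratio of 24.7 (6.75 to 104). Neither had overlapping libraries, and the G protein subunits Gng13 (-2.15) and Gnb3 (-1.34) were called in the same direction. Calhm1, a channel that releases ATP from taste cells, had 0.916 and 0 against 26.6 and 12.9, and its call was lost without mTEC-IV replicate 1 (adjusted p = 0.0681). Tas1r1, Plcb2 and Itpr3 were not called.

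Among the bitter receptors, Tas2r137 had 1.37 and 0.554 scaled tags in mTEC-I against 66.5 and 66.4 in mTEC-IV, a ratio of 66.4 (18 to 554). Tas2r118 had 2.74 and 1.66 against 79.1 and 77.8 (-4.65 ± 0.52, adjusted p = 2.16e-06), and the mTEC-IV libraries of both were close to each other. When peaks at any distance were summed for Tas2r118, the difference was -0.50 and not called (adjusted p = 0.110). Tas2r121 had 0 in both mTEC-I libraries against 39.2 and 29.7, at least 11.4-fold higher. The other called receptors were Tas2r102, Tas2r110, Tas2r116, Tas2r120, Tas2r126, Tas2r134 and Tas2r138, while Tas2r135 and Tas2r143 were not called. These receptor genes lie in clusters of similar genes, so reads shared between copies can be assigned to the wrong one.

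Among the tuft effectors, several act in the synthesis of leukotrienes and prostaglandins. Alox5ap, the partner of 5-lipoxygenase, had 1.83 and 0.554 scaled tags in mTEC-I against 59.8 and 70.4 in mTEC-IV, a ratio of 52.6 (14.6 to 216). Alox5 itself (-2.72), Ptgs1 (-3.25) and Hpgds (-3.24), the last 2 enzymes of prostaglandin synthesis, were also called. Ptgs2, Ltc4s and Ptges were not. Inpp5d, a phosphatase of inositol lipids, had 4.57 and 4.43 against 131 and 141 (-4.64 ± 0.36, adjusted p = 6.10e-08). Rgs13 had 0.916 and 3.32 against 67.1 and 74.8 (-4.64 ± 0.56, adjusted p = 5.67e-06). For these genes both mTEC-IV libraries were high and both mTEC-I libraries near 0 to 5.

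Genes of the actin bundle and of surface receptors of tuft cells were called as well. Avil, the actin binding protein advillin, had 1.37 and 1.66 scaled tags in mTEC-I against 47.9 and 34.2 in mTEC-IV, a ratio of 26.7 (8.82 to 133). Vil1, the villin of brush borders, had 0 and 0 against 11.3 and 24.8. Il17rb, the receptor of IL-25, had 1.82 and 1.1 against 27.9 and 24.8. These and Sh2d7 (-4.60) and Chat, which makes acetylcholine (-1.91), were all called, with no overlap between the populations. Il25 summed over its 4 peaks had 25.1 and 20.5 against 73.1 and 61.0 (-1.52 ± 0.37, adjusted p = 0.00473), a call lost without mTEC-I replicate 2 or mTEC-IV replicate 1 (up to 0.0965) and with peaks within 1 kb alone (adjusted p = 0.392). Its peak at -1149 bp held 0.44 and 2.71 against 58.8 and 37.0 (ratio 31.6, 10.5 to 158) and kept its call without any 1 of the 4 libraries. Dclk1, a kinase often used as a tuft marker, had 84.4 and 82.0 in mTEC-I and 63.8 and 65.9 in mTEC-IV and was not called (0.36 ± 0.26, adjusted p = 0.386), although within 1 kb alone it was called higher in mTEC-I (1.08, adjusted p = 0.0289). Krt18 and Il4ra were not called.

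**Figure D4:**
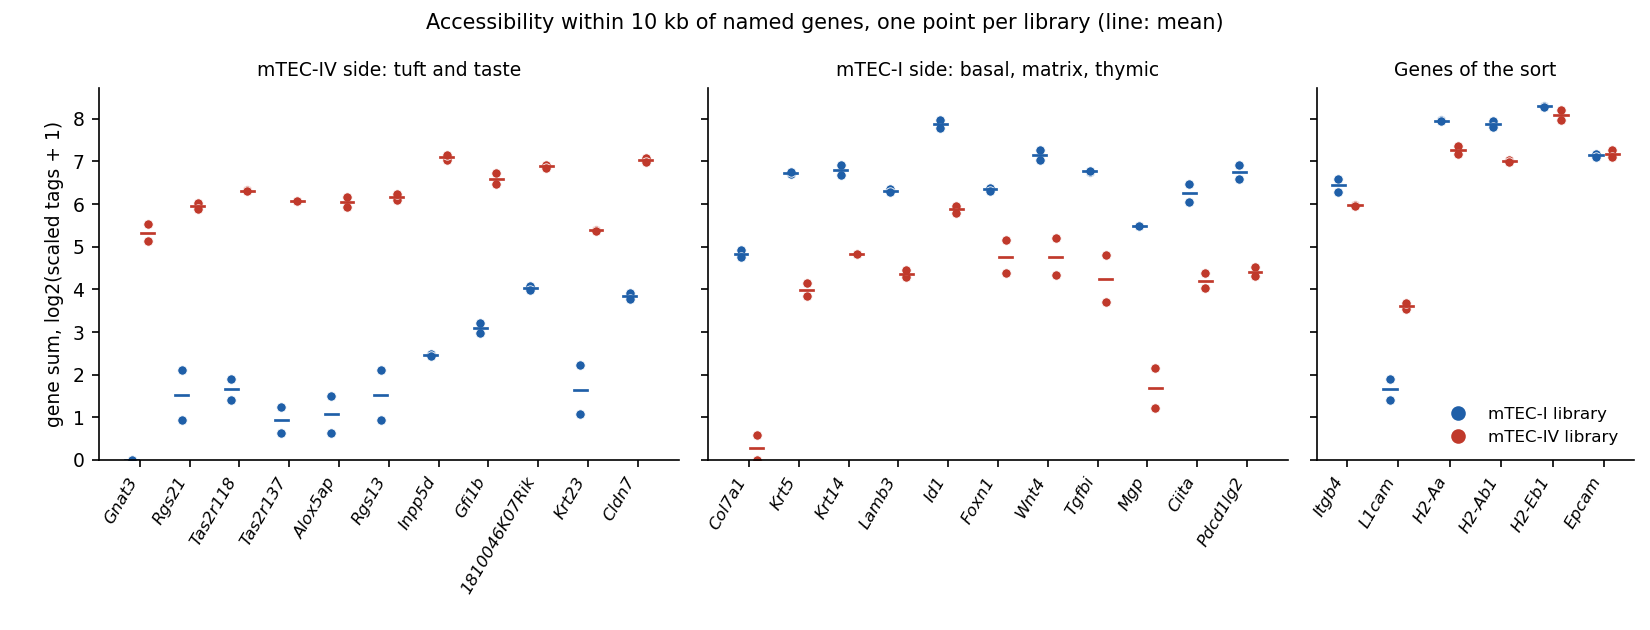
Scaled tags summed within 10 kb of the TSS (y axis, log2 of scaled tags + 1) for named genes (x axis), with 1 point per library in blue for mTEC-I and red for mTEC-IV and a line at the mean. In the left panel all genes are higher in mTEC-IV, such as Gnat3 at 0 in both mTEC-I libraries and 45.2 and 34.2 in mTEC-IV, in the middle panel all are higher in mTEC-I, and in the right panel, with the genes of the sort, the Epcam libraries overlap.

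Of 14 transcription factors linked to tuft cells, 6 were higher in mTEC-IV and 2, among them Sox9, in mTEC-I (median -0.34), and without 1 library 3 remained in mTEC-IV. Gfi1b, a repressor needed by tuft cells, had 6.85 and 8.32 scaled tags in mTEC-I against 87.1 and 105 in mTEC-IV (-3.49 ± 0.29, adjusted p = 1.36e-07). Hmx3, a homeobox factor, had 14.2 and 9.42 against 72.5 and 66.4 (-2.49 ± 0.30, adjusted p = 5.87e-06). Ascl2, a basic helix-loop-helix factor, had 9.58 and 19.4 against 75.1 and 87.2 (-2.48 ± 0.50, adjusted p = 0.00109). All 3 had separate libraries and kept their calls without any 1 of them. Pou2f3 summed over 7 peaks had 64.4 and 68.2 against 119 and 123 (-0.86 ± 0.25, adjusted p = 0.0148), and this call was lost when any 1 of the 4 libraries was left out (up to 0.127) and with the authors' scaling (adjusted p = 0.183).

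The peaks of Pou2f3 one by one did not move together. Its promoter peak, centred at -17 bp, held 6.63 and 10.3 scaled tags in mTEC-I and 10.2 and 7.41 in mTEC-IV, and the libraries overlapped. The intron 2 peak at 16.8 kb held 0 and 0 against 39.2 and 30.1, at least 11.8-fold higher in mTEC-IV. The intron 1 peak at 5.34 kb held 0.887 and 0 against 24.7 and 30.1 (ratio 57.2, 9.87 to 2332). These 2 intron peaks and 1 peak at -4.47 kb (5.31 and 5.42 against 32.0 and 36.5) kept their calls without any 1 of the 4 libraries. A neighbouring peak at -4.74 kb was higher in mTEC-I, with 13.3 and 17.9 against 3.63 and 2.64, and that call was lost in 3 of the 4 leave-outs (up to 0.125).

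The genes of the small cofactors that bind Pou2f3 lie side by side on chromosome 9. 1810046K07Rik, whose promoter is printed above, had 16.0 and 15.0 scaled tags in mTEC-I against 120 and 114 in mTEC-IV (-2.84 ± 0.34, adjusted p = 4.23e-06). Its intron 1 peak at 7.97 kb held 0.887 and 2.17 against 55.9 and 44.4 (ratio 33.7, 11.2 to 168), and its intron 2 peak at 16.5 kb 0 and 0 against 23.2 and 17.4, at least 6.89-fold higher. In all, 4 of its 7 peaks were higher in mTEC-IV and 1 in mTEC-I. Gm684, named Colca2 in RefSeq, had 47.9 and 58.8 against 53.2 and 58.0 near its start, where the libraries overlapped. A peak at -22.9 kb from Gm684, inside intron 2 of 1810046K07Rik, held 0 and 0 against 47.9 and 25.4, at least 12.4-fold higher in mTEC-IV. The related Pou2af1 next to them had 16.0 and 16.1 against 27.3 and 36.2 and was not called (adjusted p = 0.152). It was called higher in mTEC-IV in edgeR (adjusted p = 0.0397) and with the 4 libraries alone (0.0239).

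The longest run of neighbouring merged peaks all called in 1 direction in mTEC-IV lay at Kit, the receptor of stem cell factor. It held 12 peaks over 238.7 kb (chr5:75825011-76063734), with a median of 0.93 scaled tags in mTEC-I and 25.4 in mTEC-IV. In all, 13 of the 16 peaks nearest to Kit were higher in mTEC-IV, and all 13 were called without any 1 of the 4 libraries. The promoter peak held 10.6 and 24.9 against 60.3 and 43.9 (-1.60 ± 0.34, adjusted p = 0.00127). That at -54.6 kb held 0.887 and 0.541 against 52.3 and 56.1, a ratio of 74.6 (15.0 to 469), and that in intron 1 at 25.2 kb held 0.887 and 0 against 45.7 and 45.5, a ratio of 93.6 (16.4 to 3772). The promoter was thus open to some degree in mTEC-I, and the distal peaks were nearly closed there. Kitl, the ligand of Kit, lay on the other side, with 40.6 and 42.1 in mTEC-I against 16.6 and 15.4 in mTEC-IV (1.32 ± 0.34, adjusted p = 0.00768), a call lost in 3 of the 4 leave-outs (up to 0.0872).

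Trp63, the master factor of basal epithelium, showed the opposite pattern. Of its 27 peaks, 15 were higher in mTEC-I and 3 in mTEC-IV, 4 were not called and 5 were under the filter, and without 1 library 11 to 12 and 2 were called. The peak in intron 1 at -54.9 kb from the internal start held 56.6 and 56.9 scaled tags in mTEC-I against 2.18 and 0 in mTEC-IV, a ratio of 61.8 (12.6 to 389). The peak at -177 kb from that start held 38.5 and 37.4 against 0 and 2.64, a ratio of 24.8 (6.82 to 102). Both were nearly closed in mTEC-IV. The peak at the internal start itself, where the shorter p63 proteins begin (NM_011641), held 14.1 and 17.9 against 0.724 and 0, a ratio of 51.7 (4.40 to 1068), and its call was lost in 2 of the 4 leave-outs (up to 0.0725). At -42.1 kb, also in intron 1, a peak held 0 and 0 in mTEC-I against 18.2 and 18.5 in mTEC-IV, at least 6.21-fold higher. Summed within 10 kb, Trp63 had 39.7 and 39.9 against 19.9 and 29.7 and was not called (0.69 ± 0.36, adjusted p = 0.201), whereas the sum over all its peaks was (1.76, adjusted p = 4.2e-09).

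**Figure D5:**
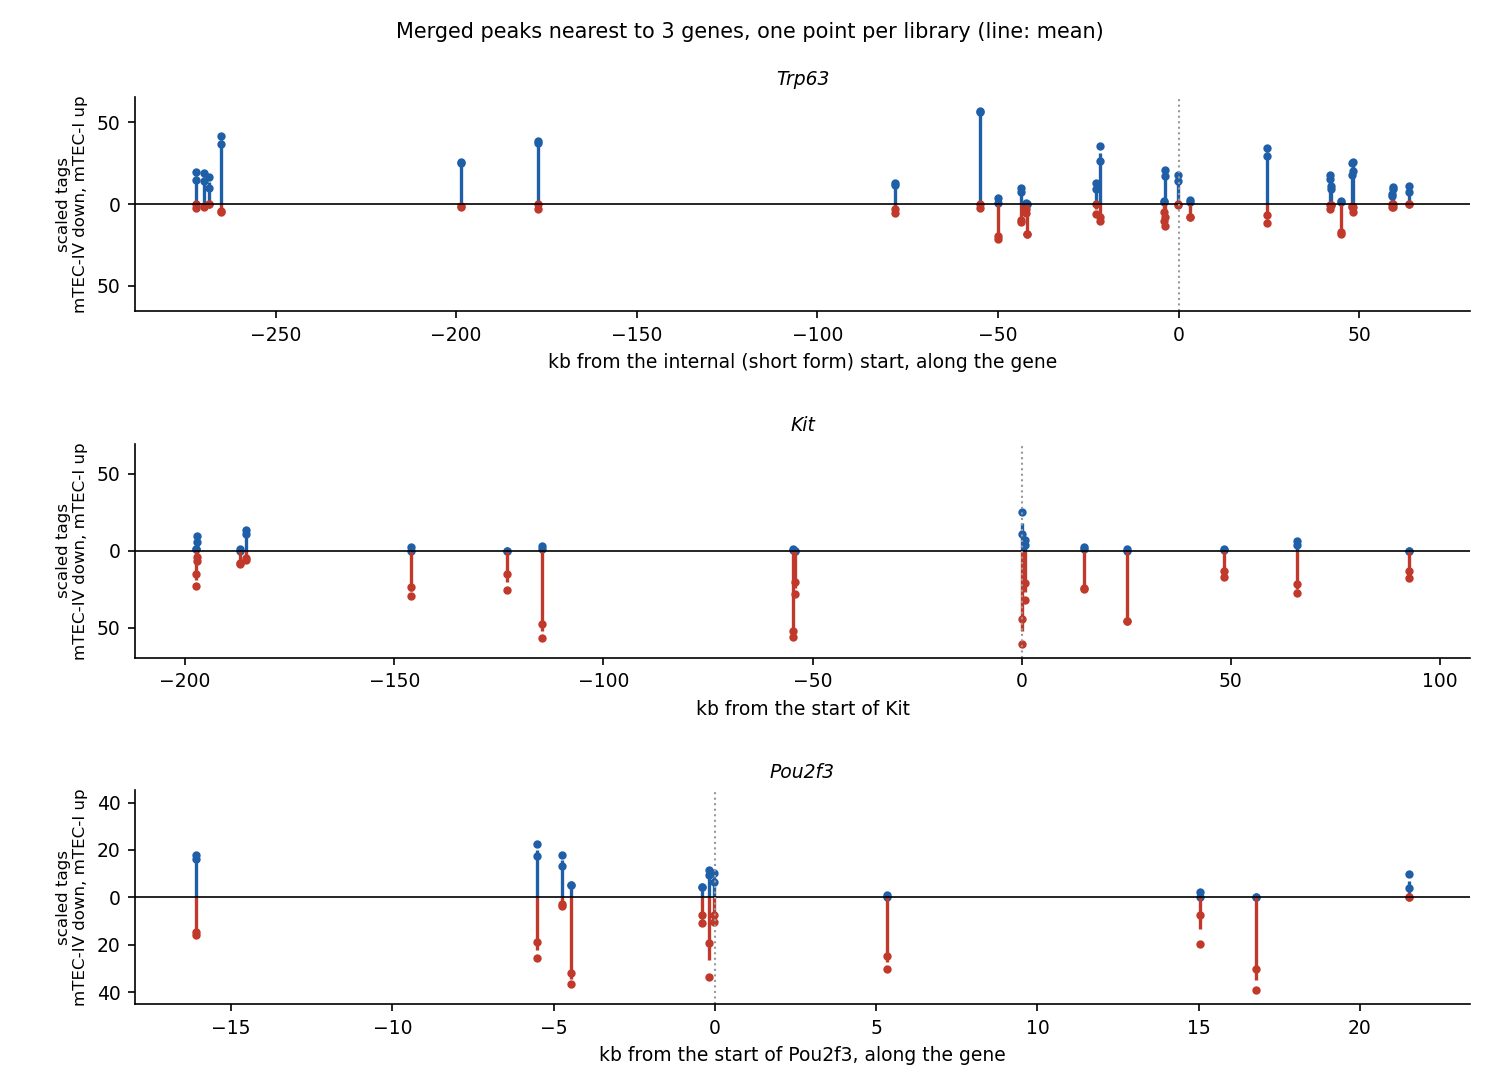
Scaled tags of every merged peak nearest to Trp63, Kit and Pou2f3 (y axis, linear, mTEC-I drawn upward in blue and mTEC-IV downward in red, both from 0) against its distance in kb from the gene start (x axis, for Trp63 the internal start), with 1 point per library and a line to the mean. At Kit the 13 called peaks all reach further down, at Trp63 15 called peaks reach further up and 3 further down, and at Pou2f3 the peak at the start is alike on both sides while the intron peaks at 5.34 and 16.8 kb are at or near 0 in mTEC-I.

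Keratin genes divided between the populations. Of 8 tested keratins of stratified epithelium, 4 were higher in mTEC-I (Krt5, Krt14, Krt16 and Krt17) and 2 in mTEC-IV (Krt1 and Krt4), with a median of 1.24. Krt5, the basal keratin, had 104 and 107 scaled tags in mTEC-I against 16.6 and 13.4 in mTEC-IV (2.74 ± 0.33, adjusted p = 4.50e-06). Its partner Krt14 had 102 and 120 against 27.3 and 27.2 (1.98 ± 0.22, adjusted p = 2.02e-06). Both were several times more open in each mTEC-I library than in either mTEC-IV library, and Krt16, a keratin of activated epidermis, had 61.6 and 38.8 against 8.65 and 3.96. Of 6 keratins of simple epithelium, Krt23 and Krt19 were higher in mTEC-IV and Krt80 in mTEC-I, and the calls of Krt4 and Krt80 were lost in 3 of the 4 leave-outs (up to 0.118 and 0.189). Krt23 had 3.66 and 1.1 against 41.2 and 40.6 (-3.74 ± 0.43, adjusted p = 3.29e-06). Krt19 had 2.74 and 0 against 34.6 and 35.2, a ratio of 23.3 (7.66 to 117), but was not called without mTEC-I replicate 2 (adjusted p = 0.0567) or in DESeq2 (adjusted p = 0.0951). Krt8, the general simple keratin, had 109 and 118 against 157 and 145 and was not called (-0.41 ± 0.15, adjusted p = 0.0586). It was called higher in mTEC-IV in edgeR (adjusted p = 0.0295) and with the 4 libraries alone (0.0199). The same held for thinning to equal depth (0.0429) and cyclic loess scaling (0.0397).

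Of 21 tested genes of the basement membrane and its anchors, 9 were higher in mTEC-I and 1, the plectin gene Plec (-0.48), in mTEC-IV, with a median of 0.62, and 4 to 6 remained in mTEC-I without 1 library. Col7a1, the collagen of anchoring fibrils, had 29.2 and 26.1 scaled tags in mTEC-I against 0 and 0.494 in mTEC-IV, a ratio of 97.9 (8.51 to 1985). Lamb3, a chain of laminin 332, had 81.2 and 76.5 against 18.6 and 20.8 (1.95 ± 0.38, adjusted p = 0.000757). Nid2, which joins laminin and collagen networks, had 105 and 101 against 33.9 and 35.7 (1.54 ± 0.21, adjusted p = 2.42e-05). In each the lower mTEC-I library stood far above the higher mTEC-IV library, and Itga6 (0.77) and Dst (0.70), partner genes of the hemidesmosome, were called in the same direction. The longest run of peaks called higher in mTEC-I lay at Col4a1, which encodes collagen IV, with 11 peaks over 51.8 kb (chr8:11343133-11394886) and medians of 24 against 2.57. Of these 11, 5 were called without mTEC-I replicate 1, 9 without mTEC-I replicate 2, and 8 and 6 without mTEC-IV replicates 1 and 2. Col18a1, another basement membrane collagen, held a run of 10 peaks, and its sum was 91.3 and 67.6 against 6.65 and 16.4 (2.79 ± 0.39, adjusted p = 2.99e-05).

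Matrix proteins and growth factor binding proteins were higher in mTEC-I in 15 of 28 tested genes, with 1 (the syndecan Sdc4) higher in mTEC-IV and a median of 1.17. Without 1 library, 10 to 13 remained. Mgp, the matrix Gla protein, had 43.8 and 43.8 scaled tags in mTEC-I against 1.33 and 3.48 in mTEC-IV (3.8 ± 0.55, adjusted p = 3.70e-05). Fn1, fibronectin, had 31.5 and 26.6 against 0.663 and 4.96 (3.25 ± 0.55, adjusted p = 0.00021). Both were low in each mTEC-IV library. Pdpn (2.92), a surface glycoprotein of Ccl21-producing mTEC, Timp1 (2.77) and Igfbp3 (2.70) were among the others called.

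Several of these matrix genes are also active in mesenchyme. Of 19 markers of mesenchyme and fibroblasts, 9 were tested and 5 of them (Col1a1, Col6a1, Col6a2, Fbn1 and Tagln) were higher in mTEC-I, with none in mTEC-IV, and 2 to 4 remained without 1 library. Their summed level was 473 and 414 scaled tags in mTEC-I and 185 and 183 in mTEC-IV. Pdgfrb, Col1a2, Dcn and Lum had no merged peak within 10 kb in any library, and the part of such cells in the matrix result was not tested.

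The pathways of TGF-beta and BMP govern matrix production and epithelial growth. Of their 55 tested genes, 18 were higher in mTEC-I and 1, the receptor Bmpr2 (-0.64), in mTEC-IV (median 0.39, 11 to 12 without 1 library). Among extracellular members, Fstl1 had 41.5 and 29.9 scaled tags in mTEC-I against 0 and 5.45 in mTEC-IV (3.84 ± 0.76, adjusted p = 0.000855). Ltbp1, which stores latent TGF-beta, had 73.5 and 75.4 against 18 and 17.3 (2.02 ± 0.27, adjusted p = 1.71e-05). Receptors Tgfbr1, Tgfbr3, Acvr1 and Bmpr1a and inhibitors Smad6 (1.65), Smad7 and Fst (1.52) were called in the same direction. Among target genes, Tgfbi had 108 and 108 against 12 and 26.8 (2.52 ± 0.31, adjusted p = 7.10e-06), and Id1, a BMP target that blocks differentiation factors, had 250 and 221 against 61.2 and 54.5 (2.01 ± 0.19, adjusted p = 2.70e-07). Id3 had 299 and 312 against 145 and 135 (1.12 ± 0.15, adjusted p = 1.19e-05), and no mTEC-IV library reached an mTEC-I library in any of these.

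In the Wnt pathway, 14 of 51 tested genes were higher in mTEC-I and 2, Wnt3 and Lrp5, in mTEC-IV (median 0.26, 6 to 8 and none to 1 without 1 library). The call of Wnt3 was lost in all 4 leave-outs (adjusted p up to 0.249). Wnt4, a ligand made by thymic epithelium, had 153 and 130 scaled tags in mTEC-I against 19.3 and 35.7 in mTEC-IV (2.38 ± 0.26, adjusted p = 1.69e-06). The receptor gene Fzd2 had 78.5 and 56.0 against 5.99 and 18.3 (2.53 ± 0.42, adjusted p = 0.00015). Both had well separated libraries, and the receptors Fzd1, Fzd4, Fzd5, Fzd6 and Fzd8 were called too. The secreted inhibitor Sfrp1 (1.79) and Wls, which exports Wnt proteins (1.70), were also called. In the Notch pathway 3 of 28 were higher in mTEC-I and 1 in mTEC-IV (median 0.16), no larger shares than the 11.5% and 9.46% of all genes. The target Heyl had 107 and 117 against 42.6 and 48.1 (1.29 ± 0.22), the ligand Jag1 179 and 169 against 107 and 102 (0.73 ± 0.15), and Notch1 (0.67) and Dtx1 (-1.43) were called but lost that call in 3 of the 4 leave-outs (up to 0.489 and 0.203).

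Regulators of thymic epithelial identity were higher in mTEC-I in 8 of 24 tested genes and in mTEC-IV in 1, Hoxa3 (median 0.36, 4 to 6 and none without 1 library). Foxn1, the factor on which thymic epithelium depends, had 81.7 and 78.7 scaled tags in mTEC-I against 34.6 and 19.8 in mTEC-IV (1.58 ± 0.28, adjusted p = 0.000332), and 4 of its 5 peaks were higher in mTEC-I (2 to 3 without 1 library). Both populations held signal at this gene, with every mTEC-I library above every mTEC-IV library. Hoxa3 had 16.0 and 15.0 against 27.3 and 41.6, a call near the threshold (adjusted p = 0.0474) that was lost in every leave-out (up to 0.384) and with the authors' scaling (0.181). Of 10 tested markers of cortical epithelium, 4 (Foxn1, Pax1, Prss16 and Tbata) were higher in mTEC-I, and 1 to 2 remained without 1 library. Their summed level was 817 and 845 against 592 and 552, and Psmb11, which defines cortical cells, had no merged peak within 10 kb.

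Among 26 tested epithelial transcription factors, 6 were higher in mTEC-I and none in mTEC-IV (median 0.18, 3 to 4 without 1 library). Besides Id1 and Id3 these were Id2, Gata3, Tfap2a and Snai2. Snai2, a factor of basal and migrating cells, had 76.2 and 85.9 scaled tags in mTEC-I against 33.2 and 38.7 in mTEC-IV (1.2 ± 0.25, adjusted p = 0.00182). Tight junction genes leaned the other way, with 7 of 20 higher in mTEC-IV and 2, Cldn2 and Cldn6, in mTEC-I, though their median (-0.10) changed sign with the authors' scaling (0.11). Cldn7, a claudin of polarized epithelium, had 14.2 and 12.8 against 134 and 126 (-3.18 ± 0.22, adjusted p = 1.95e-08). Crb3, which sets the apical side of a cell, had 10.0 and 14.4 against 43.2 and 52.0 (-1.89 ± 0.28, adjusted p = 5.71e-05). Both were clearly separated, and Cldn3 (-1.72), Cldn4 (-1.31) and Ocln (-0.86) were called alongside them. Cldn2 and Cldn6 lost their calls without mTEC-I replicate 2 (adjusted p = 0.0812 and 0.0559).

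Although both populations were sorted as MHCII low, 6 of 17 tested genes of class II presentation were higher in mTEC-I and none in mTEC-IV (median 0.33, 3 to 5 without 1 library). Ciita, the activator of these genes, had 87.2 and 65.4 scaled tags in mTEC-I against 15.3 and 19.8 in mTEC-IV (2.05 ± 0.32, adjusted p = 8.76e-05). Its promoter peak at -93 bp held 39.8 and 26.6 against 4.36 and 3.17 (2.83 ± 0.47), and that at -14.7 kb 118 and 80.2 against 22.5 and 21.2 (2.11 ± 0.23). The structural genes differed less: H2-Ab1 had 245 and 222 against 130 and 125 (0.87 ± 0.14, adjusted p = 8.95e-05) and H2-Aa 248 and 246 against 165 and 143 (0.68 ± 0.13, adjusted p = 0.000781). Within 1 kb of their starts alone neither was called (adjusted p = 0.0843 and 0.13). H2-Eb1 had 315 and 310 against 295 and 248 and was not called over 10 kb (adjusted p = 0.223), but within 1 kb alone it was called higher in mTEC-I (0.63, adjusted p = 0.00736). Cd74 and H2-DMb2 were called as well, and H2-DMb1 was called at an adjusted p of 0.0268 that was lost in every leave-out (up to 0.231).

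Of 20 tested class I genes 3 were higher in mTEC-I (Psmb9, H2-T24 and H2-Q7, each lost in at least 1 leave-out) and none in mTEC-IV (median 0.15, 1 to 2 without 1 library). These counts stand against 11.5% and 9.46% of all genes, and reads shared between the similar H2 genes can be assigned to the wrong copy. Of 12 costimulatory and checkpoint ligands, 3 were higher in mTEC-I (median -0.13, or 0.08 with the authors' scaling), and 1 to 4 were called without 1 library. The call of Cd70, a ligand of the TNF family, was lost in 3 of the 4 leave-outs (up to 0.265). Pdcd1lg2, the ligand PD-L2, had 120 and 95.4 scaled tags in mTEC-I against 21.9 and 18.8 in mTEC-IV (2.34 ± 0.22, adjusted p = 2.50e-07), though not called from peaks within 1 kb alone (adjusted p = 0.0773). Cd40 had 64.4 and 79.3 against 35.2 and 32.7 (1.05 ± 0.23), lost without mTEC-I replicate 2 (adjusted p = 0.0587). In both genes all mTEC-I values lay above all mTEC-IV values.

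Chemokines and their receptors gave 14 of 38 higher in mTEC-I and 6 in mTEC-IV (median 0.38, 7 to 9 and none to 2 without 1 library). Those higher in mTEC-I were 13 ligands and the scavenger receptor Ackr4, whereas 5 of the 6 higher in mTEC-IV were receptors (among them Ccr2, Ccr4, Ccr7 and Cxcr1), the other being the ligand Cxcl2. Ccl2, a ligand for monocytes, had 31.0 and 43.8 scaled tags in mTEC-I against 5.32 and 3.96 in mTEC-IV (2.76 ± 0.52, adjusted p = 0.000538), though not within 1 kb alone (adjusted p = 0.217). Ccl20 had 12.8 and 17.7 against 0 and 0, at least 4.38-fold higher, with no call without mTEC-I replicate 2 (adjusted p = 0.0844) or in DESeq2 (0.082). Both were low or at 0 in mTEC-IV. Ccl21b, a gene of the T cell attractant CCL21 with near-identical copies, had 11 and 15.0 against 7.98 and 12.4, which overlapped and was not called.

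The TNF family and NF-kB list gave 9 of 56 in mTEC-I and 3 in mTEC-IV, against 11.5% and 9.46% of all genes (median 0.09, 3 to 9 and 1 to 2 without 1 library). Tnfsf15 had 75.3 and 64.9 scaled tags in mTEC-I against 27.9 and 28.7 in mTEC-IV (1.27 ± 0.26, adjusted p = 0.00134), while its receptor Tnfrsf25 had 63.9 and 69.9 against 150 and 139 (-1.10 ± 0.18, adjusted p = 0.00012). Within 1 kb alone Tnfsf15 was not called (adjusted p = 0.0817). Ligand and receptor thus lay on opposite sides, each with separate libraries. Genes of the cornified layer gave 6 of 23 and 2 (median 0.09), and without 1 library only 3 to 4 and none to 1 were called, to be read against the same shares of all genes. Spink5, a protease inhibitor of epidermis, had 37.4 and 48.8 against 0.663 and 3.97 (3.93 ± 0.58, adjusted p = 5.01e-05), and Dsg1b, a desmoglein, 18.3 and 25.5 against 0 and 0.494, a ratio of 75.8 (6.45 to 1532). Interferon response genes gave 7 of 34 and 4 (median 0.27), and no more than 4 and 3 were called without 1 library, again beside 11.5% and 9.46% of all genes.

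Regulators of gut, liver and lung gave 4 of 14 higher in mTEC-IV and 1, Foxa3, in mTEC-I, a call lost in 3 of the 4 leave-outs (up to 0.31; list median -0.19, or 0.03 with the authors' scaling). Without 1 library, 2 to 3 were called in mTEC-IV. Cdx2, an intestinal homeobox factor, had 2.74 and 3.88 scaled tags in mTEC-I against 32.6 and 40.6 in mTEC-IV (-3.13 ± 0.41, adjusted p = 1.36e-05). Foxa1, an endoderm factor, had 26 and 21.6 against 92.4 and 78.3 (-1.80 ± 0.22, adjusted p = 5.40e-06), and both kept separate libraries. Neural adhesion genes gave 5 of 24 higher in mTEC-IV and 1, Ncam1, in mTEC-I (median -0.45), and 2 to 4 and none to 1 remained without 1 library. Nfasc had 10.0 and 15.0 against 50.5 and 55.5 (-2.02 ± 0.33) and Cntn1 1.37 and 2.21 against 19.9 and 15.4 (-2.75 ± 0.48), both of them partners or relatives of L1cam. Neuroendocrine genes gave 3 of 12 higher in mTEC-I, among them Isl1 with 105 and 100 against 47.9 and 34.7 (1.31 ± 0.23), and none in mTEC-IV. Of 16 housekeeping genes, 1 was higher in mTEC-I and 3 in mTEC-IV, with a median of 0.01 and sizes of at most 0.71, and none was called with the authors' scaling.

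Markers of blood cells were sparse. Of 20 thymocyte and T cell markers 8 were tested, and their summed level was 302 and 278 scaled tags in mTEC-I and 289 and 298 in mTEC-IV. Cd3d, Cd3e, Cd3g, Cd8a and Cd8b1 had no merged peak within 10 kb, while Lck (0 and 0.554 against 27.3 and 22.8) and Cd4 were higher in mTEC-IV and Bcl11b in mTEC-I, the call of Cd4 being lost without mTEC-I replicate 2 or mTEC-IV replicate 1 (up to 0.0711). B cell markers summed to 171 and 157 against 216 and 221, with no merged peak at Ms4a1 or Pax5. Cd79a had 0.916 and 0 against 25.9 and 23.8, a ratio of 49.3 (8.5 to 2015), and Cd79b and Blnk were called in the same direction, with calls lost in 3 and 4 of the 4 leave-outs (up to 0.421 and 0.137), and Fcer2a in the other. Myeloid markers summed to 312 and 329 against 334 and 311, with no merged peak at Csf1r, Itgax, Lyz2 or Adgre1. Of 8 tested, 2 (Cd68 and Flt3) were higher in mTEC-IV and 1 (Fcgr1) in mTEC-I, and each call was lost in some of the leave-outs. Endothelial markers summed to 223 and 260 against 307 and 328, with no merged peak at Pecam1 or Cdh5, and Tek was higher in mTEC-IV (-2.25, but adjusted p = 0.911 with peaks at any distance) and Emcn in mTEC-I, lost in 3 of the 4 leave-outs (up to 0.097). The part of such cells in the other results was not tested.

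Many genes were the nearest gene to peaks that moved in opposite directions. Peaks were assigned by the nearest TSS alone, and whether a distal peak acts on that gene was not tested. Of 10369 genes nearest to a called peak, 2804 (27%) had peaks called in both directions, and in 1901 both were beyond 2 on the log2 scale. Irx1, a homeobox factor, had 3 peaks higher in mTEC-I and 4 in mTEC-IV. Its peak at 293.7 kb held 26.5 and 39.6 scaled tags in mTEC-I against 0 and 0 in mTEC-IV, at least 8.78-fold higher. Its peak at -246.5 kb held 0.44 and 0 against 61.0 and 55.0, a ratio of 236 (20.7 to 4715). Sites nearest to the same gene were thus open in different populations. Efnb2, the ligand ephrin B2, had 14 and 3 such peaks, Pik3r1, a subunit of PI3 kinase, 11 and 5, and Slc7a11, the cystine transporter, 13 and 2. Within 10 kb of the start such genes were fewer, 449 of 5507 (8.15%), and 366 of these were not called as a sum. In the same way, 5582 of the 11921 genes not called as a sum had at least 1 called peak at some distance.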

How the data were processed

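ATAC-seq was compared between 2 libraries of mTEC-I and 2 of mTEC-IV, with mm9 coordinates. Peak calling by the authors was done library by library with HOMER, per the file headers (factor style, false discovery rate 0.001, at least 4-fold over the local 10000 bp, fragment length 300 bp), merged them over the 8 libraries and deposited the signal of each merged peak as tags per 10000000 tags. The submitters' processing notes name bcl2fastq 2.15.0.4, Picard 1.108 and HOMER. How reads were aligned, deduplicated or shifted is not given in the sources used here, and a change in these would move single values. Deposited values were whole multiples of 0.5 tag, so the read ends behind them could be recovered.

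Peaks with at least 10 deposited tags in at least 2 of the 8 libraries were scaled with TMM factors (edgeR 4.0.16) and tested with limma 3.58.1 with a mean-variance trend (R 4.3.3) on log2(scaled tags + 1). All 8 libraries shared 1 estimate of the spread, and p-values were adjusted over all features by Benjamini-Hochberg. Gene sums took the merged peaks nearest to a gene within 10 kb of its TSS and had TMM factors of their own. All adjusted p-values in the text are limma's unless edgeR or DESeq2 1.42.0 is named. The script was tested on simulated data with 200 changed genes.

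Ratios carry exact 95% intervals for counts, and a population at 0 was set to a floor of 3 tags per library. Counts ending in 0.5 tag were rounded up for the interval but not for the ratio. At such low counts the interval is therefore not exact for the ratio printed with it. The members and all 32 gene lists were chosen with earlier results of these data known. The text names the genes of the sort, up to 4 genes per list by size of the difference, genes among the 10 largest and peaks among the 5 largest per direction (means of at least 20 and 30 scaled tags, libraries not overlapping, predicted genes left out for genes), and further genes chosen after their values were seen, among them Trp63, Pou2f3, Kit, 1810046K07Rik, Gm684, Pou2af1, Il25, Dclk1, Krt8, Ccl21b, Col18a1 and the single peaks described at named genes. The choice of the largest peaks left out chromosome 18 and untranslated regions and took a single peak per nearest gene. The up to 4 genes per list were taken only from called genes whose libraries did not overlap. Members given with a log2 difference alone were also chosen after their values were seen. Some members of the lists are counted but not reported here by name.

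Promoter sequences are from RefSeq (GRCm38.p6), matched by symbol, and their coordinates are not those of the peaks. The search was made on these promoters, a choice made after the data were seen, because the peaks' own build had no genome here. The motifs were the octamer, AP-1, a p63 half-site (GACATGTC), NF-kB (GGGANTTTC), GRHL (AACCGGTT), ETS (CCGGAAGT, and also GAGGAAGT), the E-box, the RUNX motif TGTGGTT, the GATA factor motif AGATAA, HNF4 (CAAAGTCCA), KLF (GGGCGTGG), CTCF (CTAGNGGGC), RFX (GTTGCCATG) and the interferon response element, on both strands.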

Additional observations from a re-analysis of the deposited data

How the results depend on the processing

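With 1 library of the 8 left out at a time, and the filter on low values applied anew, 4633 to 14549 peaks were called higher in mTEC-I and 2822 to 12797 higher in mTEC-IV, and 738 to 2050 and 518 to 1729 genes. Without replicate 1 of the population concerned, 6244 of the 13649 and 6108 of the 11851 peaks were no longer tested, and 230 of the 1737 and 246 of the 1427 genes. An alternative chosen after seeing the data kept the tested features fixed, and its highest counts were 14565 and 12841 peaks. Without mTEC-I replicates 1 and 2 it gave 8541 and 8511 peaks higher in mTEC-I, 836 and 871 genes higher in mTEC-I and 806 and 789 higher in mTEC-IV. Without mTEC-IV replicates 1 and 2 it gave 955 and 1098 genes higher in mTEC-I and 665 and 698 higher in mTEC-IV. A filter at 20 tags left 8354 and 6353 peaks called. Sums within 1 kb gave 684 and 487 genes, and sums at any distance 3472 and 2811. The authors' scaling left 772 genes higher in mTEC-IV. The other alternatives, among them edgeR (15971 and 15664 peaks, 2281 and 2008 genes) and DESeq2 (14624 and 12730 peaks, 1834 and 1549 genes) on the recovered read ends, thinning to equal depth, no filter, other pseudocounts and the 4 libraries alone, stayed within 1.5 times of the counts in the report. With peaks at any distance, the sums of Cntnap2 (0.46) and Pax1 (-0.17) changed sign, and the cause was not tested. Same-numbered libraries did not deviate together over the peaks (correlations from -0.0113 to 0.0282). This cannot show whether they share an animal or a sort, which the labels do not state. With the replicate number as a block, 13707 and 11859 peaks and 1706 and 1389 genes were called. Because a library held between 6010018 and 10374623 tags, a value of 0 allows up to 3 tags, and differences near that floor cannot be sized.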

Other observations

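Some repeat families held called peaks mostly in 1 direction, among the 68 families with at least 20 tested peaks. They were picked after their values were seen and were not tested. Of 46 peaks in MER2, a DNA transposon, 44 were called higher in mTEC-IV, with medians of 0 and 0.271 scaled tags in the mTEC-I libraries and 21.1 and 23 in mTEC-IV. Of 31 peaks in L1M2, an old LINE-1 family, 23 were called higher in mTEC-IV. Of 63 peaks in LSU-rRNA_Hsa, a ribosomal RNA repeat, 55 were higher in mTEC-IV, with medians of 31.4 and 33.1 against 85 and 91.5. The LTR families RLTR33 and RLTR23 lay on the other side, with 30 of 42 and 39 of 62 peaks called higher in mTEC-I. In RLTR33 the medians were 15.3 and 16.8 against 1.09 and 1.32. Reads from repeats can map to several copies, and how such reads were treated is not given in the sources used here.

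Peaks on the X chromosome were called at 16.8% and 9.93% of 846, against 22.9% and 19.9% of those on autosomes. Within 1 kb of a TSS, 6.73% of 416 X-linked peaks were higher in mTEC-I and 1.92% higher in mTEC-IV, against 5.97% and 9.85% on autosomes. Beyond 1 kb the X-linked shares were 26.5% and 17.7% of 430, against 29.0% and 23.6%. These shares are descriptions, and the sex of the mice is not used here.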
